A study of Mus musculus with 8 samples.

Results

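Imprinted genes, which are transcribed mainly from the allele inherited from one parent, were followed in thymic epithelial cells (TECs), the stromal cells that guide T-cell development. The list held 34 mouse genes, matched by symbol to the Ensembl identifiers of the 56923 genes in the count tables, and it left out *Igf2* and *Igf2r*. Of these, 33 were matched (the symbol *Zrsr1* was not, and it is not analysed here), and 28 passed the filter on low counts and were tested. By the usual assignment in mouse, 14 of the 34 are maternally expressed, 19 are paternally expressed, and *Gnas* is a complex locus with transcripts of both kinds. The assignment is not specific to TECs, and some of these genes may be imprinted only in other tissues. Whether each gene is imprinted in TECs was not measured, so maternal and paternal below name the assigned class.

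The study compared TECs straight from the thymus with TECs grown as a monolayer and as organoids, using 4 groups of 2 libraries each (n=2 throughout). All cells were wild type (labelled WT, no treatment), and the methods give C57BL/6J mice as the source. They were sorted as EpCAM+ TECs from E16.5 thymi. *In vivo* TECs were lysed at once, 2D-cultured TECs after 3 days on laminin, and organoids in Matrigel after 3 days (D3) or 7 days (D7). The culture medium contained FGF7 and, at first, the kinase inhibitor thiazovivin. The labels call the libraries biological replicates, and a legend gives 2 mice per condition for *in vivo*, organoid and 2D TECs, without the organoids' day. The cells came from a single inbred strain, so reads from the maternal and the paternal allele could not be told apart. Every level below is the sum of both alleles.

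Imprinted genes lie in clusters governed by control regions that carry DNA methylation on only 1 parental allele. The protein ZFP57 recognises a methylated hexamer in many of these regions and, through TRIM28, keeps the mark in place, while DNMT1 with UHRF1 copies it at each cell division. Many of the genes act on fetal growth, and several form a network that is active before birth and silenced afterwards in many tissues. Some clusters hold a long non-coding RNA that is itself imprinted, such as *Kcnq1ot1*, *Airn*, *H19* and *Meg3*.

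The hexamer TGCCGC was searched on both strands of the 300 bases (250 before, 50 after) around the start of the Ensembl canonical transcript of each protein-coding or long non-coding gene. For several of the imprinted genes, among them *Mest*, *Grb10*, *Snrpn* and *Gnas*, this start lies inside the annotated gene rather than at its outer end. The hexamer occurred in the windows of 12 of the 33 matched genes (36.4%) and in 4802 of 54641 windows of all such genes (8.79%). The windows of *Peg10* and *Sgce* share 298 bases, so 1 match is counted for both. Those of *Peg3* and *Usp29* also overlap, and neither holds a match. The median number of CpG dinucleotides was 12 in the windows of the imprinted genes and 5 in those of all genes. The hexamer itself holds a CpG, and the sets were not matched for CpG content or gene type. Windows were placed by transcript start, not by control region. The windows below are from GRCm39, 5′ to 3′ on the strand of the gene, with the hexamer or its reverse complement GCGGCA in capitals. They are shown for 5 of the genes with the largest or steadiest differences between groups, chosen after their values were seen. These are *H19* (chr7:142133908-142134207, minus strand), *Meg3* (chr12:109506629-109506928, plus strand), *Grb10* (chr11:11987370-11987669, minus strand), *Mest* (chr6:30737794-30738093, plus strand) and *Peg3* (chr7:6733419-6733718, minus strand).
H19: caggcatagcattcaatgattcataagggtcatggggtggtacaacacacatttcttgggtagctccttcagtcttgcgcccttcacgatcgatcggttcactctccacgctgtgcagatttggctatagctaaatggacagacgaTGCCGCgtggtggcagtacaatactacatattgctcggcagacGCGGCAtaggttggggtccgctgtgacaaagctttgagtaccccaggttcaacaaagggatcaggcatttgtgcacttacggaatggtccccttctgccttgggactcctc
Meg3: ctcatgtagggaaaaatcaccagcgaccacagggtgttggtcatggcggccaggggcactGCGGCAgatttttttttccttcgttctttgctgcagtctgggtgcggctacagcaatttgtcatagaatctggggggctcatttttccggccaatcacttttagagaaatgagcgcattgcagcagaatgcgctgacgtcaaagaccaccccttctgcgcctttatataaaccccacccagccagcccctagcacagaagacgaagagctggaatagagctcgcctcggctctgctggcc
Grb10: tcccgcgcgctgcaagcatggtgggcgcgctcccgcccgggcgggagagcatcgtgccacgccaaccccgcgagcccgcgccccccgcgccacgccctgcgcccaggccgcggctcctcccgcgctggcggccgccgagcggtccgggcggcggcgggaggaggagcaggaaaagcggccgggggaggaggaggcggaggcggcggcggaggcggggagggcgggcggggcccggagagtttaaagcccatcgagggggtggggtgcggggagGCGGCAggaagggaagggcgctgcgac
Mest: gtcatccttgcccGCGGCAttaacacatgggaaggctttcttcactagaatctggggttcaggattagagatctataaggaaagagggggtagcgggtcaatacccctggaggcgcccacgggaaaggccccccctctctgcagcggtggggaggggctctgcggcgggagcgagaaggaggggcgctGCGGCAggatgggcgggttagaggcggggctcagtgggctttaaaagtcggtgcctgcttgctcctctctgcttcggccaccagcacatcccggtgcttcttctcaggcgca
Peg3: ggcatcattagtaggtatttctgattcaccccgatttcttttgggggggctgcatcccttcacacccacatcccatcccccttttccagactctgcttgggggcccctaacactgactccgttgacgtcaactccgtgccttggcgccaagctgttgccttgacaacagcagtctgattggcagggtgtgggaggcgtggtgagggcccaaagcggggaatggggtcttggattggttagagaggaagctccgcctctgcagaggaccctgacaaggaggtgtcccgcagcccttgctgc
The *H19* and *Mest* windows each held 2 matches, *Meg3* and *Grb10* 1 each, and *Peg3* none. The window of *Grb10* was the richest of the 5 in CpG, with 45, and that of *Peg3* the poorest, with 9. DNA methylation was not measured, and a match describes the letters in the window, not binding. The start of *Peg3* lay 114 bases from that of its divergent neighbour *Usp29*, and the start of *Peg10* lay 199 bases from that of *Sgce*.

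Counts summed to between 5084715 and 7612532 per library. Levels are given in CPM, a gene's share of the reads of a library after scaling by TMM factors, with replicate 1 first. The 10 TEC markers, which include *Epcam*, keratins and *Foxn1*, were all detected in 7 libraries and 9 of them in the other. They summed to 6595 and 7055 CPM *in vivo*, 7126 and 6501 CPM in 2D, 1367 and 1224 CPM at D3 and 1683 and 1727 CPM at D7. Of the 10, 5 were higher and 5 lower *in vivo* than in 2D. *Foxn1*, the master regulator of TEC identity, ran otherwise, at 223 and 273 CPM *in vivo*, 60.5 and 84.9 CPM at D7, 8.76 and 9.61 CPM at D3 and 8.52 and 4.82 CPM in 2D. The summed level of 6 thymocyte markers was 599 and 256 CPM *in vivo*, with all 6 detected, and between 2.36 and 8.27 CPM in the cultures. The 10 mesenchymal markers, which include *Dcn*, summed to 101 and 71.7 CPM *in vivo*, 82.7 and 75.1 CPM at D7, 26.8 and 22.6 CPM at D3 and 46.4 and 42.8 CPM in 2D. The summed level of 5 endothelial markers did not exceed 5.20 CPM, and 5 erythroid markers were found only *in vivo*, at 7.29 and 11.8 CPM. The 5 myeloid markers summed to 12.4 and 10.6 CPM at D7, where 3 of them were at 0, 6.25 and 4.64 CPM *in vivo* and at most 4.07 CPM at D3 and in 2D. The part of these other cells in the differences below was not tested. In bulk RNA, fewer cells of a type and less RNA per cell cannot be told apart.

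Of the 28 tested genes, 21 differed between at least 1 pair of groups in the quasi-likelihood test of edgeR, adjusted by Benjamini-Hochberg over all 14504 expressed genes at 0.05. Between *in vivo* TECs and D7 organoids, 12 of the 28 differed, 9 higher and 3 lower *in vivo*, where 34.8% of all genes differed (16.8% higher, 18.0% lower). Against D3 organoids, *in vivo* TECs were higher in 6 and lower in 4, where 28.2% of all genes differed (14.0% higher, 14.1% lower). Against 2D-cultured TECs, 7 were higher *in vivo* and 7 lower, beside 41.6% of all genes (21.7% higher, 19.9% lower). D7 organoids were higher than 2D-cultured TECs in 4 and lower in 9, beside 45.5% of all genes (24.4% higher, 21.1% lower). D3 organoids were higher than 2D in 4 and lower in 7, beside 38.3% (19.3% higher, 19.1% lower). From D3 to D7, 3 rose and 6 fell, beside 20.8% (10.9% higher, 9.90% lower). The shares called among the imprinted genes thus ran from 32.1% to 50%, near or somewhat above those of all genes. The 6 comparisons draw on the same 8 libraries. Some of the 28 genes passed the filter without reaching 1 CPM in the group where they were lowest, so these counts are a description.

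Over the 28 genes, the log2 fold change had a median of 0.43 for *in vivo* over D7, 0.25 for *in vivo* over D3 and 0.14 for *in vivo* over 2D, against -0.01, 0.01 and 0.06 for all genes. It was -0.34 for D7 over 2D, 0.03 for D3 over 2D and 0.03 for D7 over D3, against 0.10, 0.02 and 0.06. These medians were the same with *Ascl2*, which had no counts in 2D, set at its bound. Without TMM scaling, the median of all genes moved to 0.23 for *in vivo* over 2D, 0.29 for D3 over 2D and 0.31 for D7 over 2D. The split of the imprinted genes moved in the same direction, to 9 higher and 4 lower for *in vivo* over 2D, and 6 higher and 6 lower for D3 over 2D. The shares of all genes called in that setting are not given here.

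Read by parental class, the 6 genes that were higher *in vivo* than at D3 were all maternally expressed, 6 of the 12 tested (*H19*, *Rian*, *Meg3*, *Ascl2*, *Cdkn1c* and *Grb10*). The 4 that were lower *in vivo* than at D3 were all paternally expressed, 4 of the 15 tested (*Mest*, *Airn*, *Peg3* and *Plagl1*). Of all genes, 14.0% were higher and 14.1% lower in this comparison, and the calls of *Ascl2*, *Grb10* and *Plagl1* were each lost when a single library was left out. The median log2 fold change in this comparison was 0.95 over the maternal and 0.06 over the paternal genes. D3 organoids set against 2D-cultured TECs gave 1 maternal gene higher and 5 lower, and 3 paternal genes higher and 1 lower, beside 19.3% of all genes higher and 19.1% lower. The other comparisons were mixed. For *in vivo* over D7, 5 of the 12 maternal genes were higher and 1 lower, beside 4 of the 15 paternal genes higher and 2 lower. Of all genes, 16.8% were higher and 18.0% lower. D7 organoids against 2D gave 2 maternal genes higher and 5 lower, and 2 paternal genes higher and 3 lower (24.4% and 21.1% of all genes). For *in vivo* over 2D, 3 maternal genes were higher and 2 lower, and 4 paternal genes were higher and 4 lower (21.7% and 19.9%). From D3 to D7, 2 maternal genes rose and 2 fell, while 1 paternal gene rose and 4 fell (10.9% and 9.90%). The difference between the classes was not tested, because genes of a cluster are not independent of each other.

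**Figure D1:**
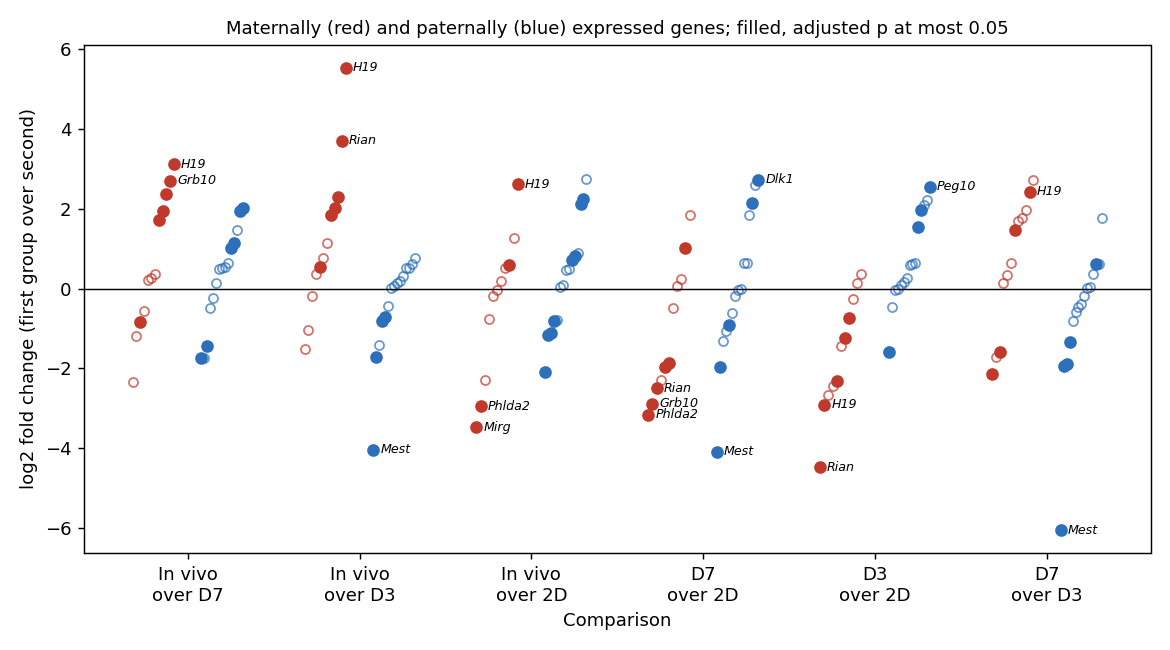
Log2 fold change (vertical axis, first group over second) of the tested imprinted genes in the 6 comparisons (horizontal axis), with maternally expressed genes in red and paternally expressed genes in blue; filled points had an edgeR adjusted p of at most 0.05, and names mark called genes beyond about 2.4 in either direction. For *in vivo* over D3, the filled red points lie above 0 and the filled blue points below 0, from 5.54 for *H19* to -4.04 for *Mest*. *Gnas* is not drawn, nor is *Ascl2* in comparisons with 2D, where it had no counts.

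**Figure D2:**
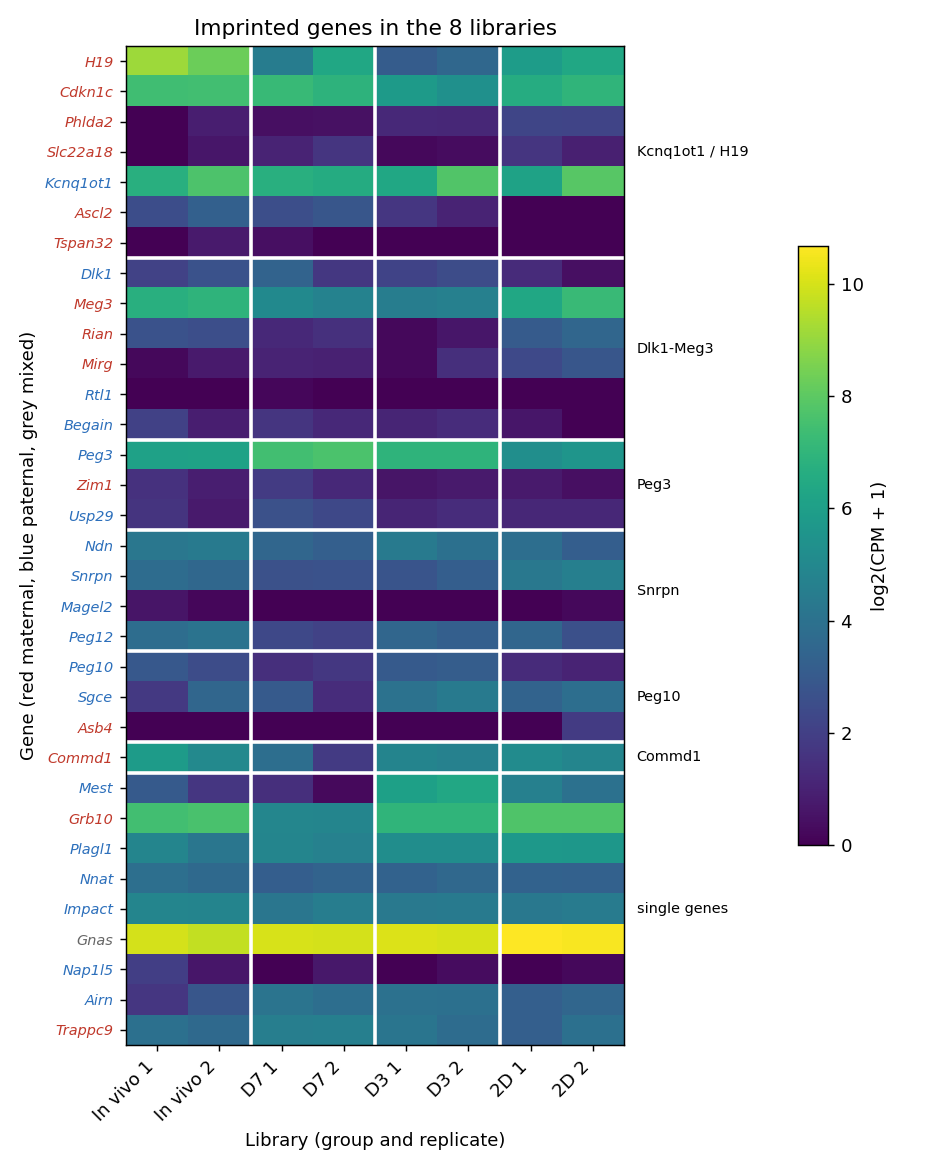
Level of the 33 matched imprinted genes (rows, grouped by genomic cluster) in the 8 libraries (columns), as log2(CPM + 1) on the colour scale. *Gnas* is bright in every library, *H19* is brightest *in vivo*, and *Mest* is brightest at D3 and darkest at D7.

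*H19* (ENSMUSG00000000031, chr7:142129262-142133957, minus strand) is a maternally expressed long non-coding RNA that is abundant in fetal tissues and restrains growth. It had 547 and 312 CPM *in vivo*, 58.7 and 80.8 CPM in 2D, 7.58 and 10.7 CPM at D3, and 21.5 and 80.0 CPM at D7. *In vivo* TECs stood above every culture, D3 organoids were lowest, and D7 libraries overlapped those of 2D. The level *in vivo* was 46.4-fold that at D3 (log2 fold change 5.54±0.47, s.e., edgeR adjusted p = 1.1e-07) and 6.15-fold that in 2D (2.62±0.40, edgeR adjusted p = 4.2e-05). It was 8.64-fold that at D7 (3.11±0.41, edgeR adjusted p = 1.4e-05), and on the log2 scale 2.42 without D7 replicate 1 and 4.32 without D7 replicate 2. *H19* rose from D3 to D7 by 2.42±0.46 (edgeR adjusted p = 0.0013), or by 3.11 without D7 replicate 1 and 1.22 without D7 replicate 2. For D7 over 2D the value was -0.49±0.40 (edgeR adjusted p = 0.34), and it became -1.70 and passed the threshold without D7 replicate 2, as it did with no filter on low counts (-0.52). The *in vivo* library with more *H19* was also the one with more thymocyte RNA, and the mesenchymal sum was higher there too.

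*Cdkn1c*, *Phlda2*, *Slc22a18*, *Ascl2* and *Tspan32* are the maternally expressed neighbours of *Kcnq1ot1*, the paternally expressed RNA that silences them in *cis*. *Cdkn1c* (chr7:143012069-143014806, minus strand) encodes an inhibitor of cyclin-dependent kinases. Its levels were 166 and 171 CPM *in vivo*, 145 and 117 CPM at D7, 97.7 and 125 CPM in 2D, and 54.9 and 39.4 CPM at D3. D3 organoids were thus below every other group. *Cdkn1c* was higher *in vivo* than at D3 by 1.84±0.20 on the log2 scale (edgeR adjusted p = 1.3e-06), lower at D3 than in 2D (-1.24±0.19, edgeR adjusted p = 7.4e-05), and rose again from D3 to D7 (1.48±0.19, edgeR adjusted p = 7.4e-05). The smaller difference for *in vivo* over 2D (0.60±0.19, edgeR adjusted p = 0.016) was no longer called without *in vivo* replicate 2 (0.57) or without 2D replicate 1 (0.44). *In vivo* TECs over D7 gave 0.36±0.19 (edgeR adjusted p = 0.14), and D7 over 2D gave 0.24±0.19 (edgeR adjusted p = 0.33).

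*Kcnq1ot1* itself (chr7:142731402-142850327, minus strand) was not called in any comparison. It had 105 and 207 CPM *in vivo*, 106 and 94.0 CPM at D7, 81.7 and 217 CPM at D3, and 69.8 and 236 CPM in 2D. The replicates lay far apart outside D7, with replicate 2 above replicate 1 in the other 3 groups, so all groups overlapped. The fitted differences ran from -0.61±0.44 for D7 over 2D to 0.65±0.44 for *in vivo* over D7. Without 2D replicate 1 the D7 over 2D value was -1.24 and passed the threshold. With no filter on low counts, the differences of D7 from *in vivo* (0.61), 2D (-0.64) and D3 (-0.64) passed it.

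*Ascl2*, a transcription factor of placental and intestinal progenitors, had no counts in either 2D library. It had 4.68 and 8.72 CPM *in vivo*, 4.95 and 6.30 CPM at D7 and 2.19 and 1.11 CPM at D3. Against a floor of 3 counts in each 2D library (0.550 CPM), its level was at least 12.2-fold higher *in vivo*, at least 10.2-fold higher at D7 and at least 3.01-fold higher at D3. The *in vivo* over D3 difference (2.03±0.67, edgeR adjusted p = 0.033) was lost when any of 5 single libraries was left out, with values from 1.49 to 2.57. *Phlda2*, which restrains placental growth, ran the other way, with 3.63 and 3.52 CPM in 2D and at most 1.35 CPM elsewhere. It was lower than in 2D both *in vivo* (-2.95±1.13, edgeR adjusted p = 0.045) and at D7 (-3.16±1.16, edgeR adjusted p = 0.034). Both calls rested on at most 20 counts per library and were lost without either 2D or either D7 replicate. The first was also lost without *in vivo* replicate 1 (-2.06), and *in vivo* replicate 1 itself had no counts. *Slc22a18*, a membrane transporter, was tested at up to 2.18 CPM and not called. *Tspan32* had 8 counts in all and was not tested.

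In the *Dlk1*-*Meg3* cluster on chromosome 12, *Meg3*, *Rian* and *Mirg* are maternally expressed non-coding RNAs, and *Dlk1*, *Rtl1* and *Begain* are paternally expressed. *Meg3* (ENSMUSG00000021268, chr12:109506877-109538165, plus strand) had 104 and 123 CPM *in vivo*, 80.9 and 151 CPM in 2D, 22.1 and 24.2 CPM at D3, and 32.8 and 25.6 CPM at D7. The 4 organoid libraries lay below all 4 others. *Meg3* was 4.91-fold higher *in vivo* than at D3 (2.3±0.25, edgeR adjusted p = 2.2e-06) and 3.87-fold higher than at D7 (1.95±0.25, edgeR adjusted p = 1.1e-05). Relative to 2D it was lower at D3 (-2.32±0.25, edgeR adjusted p = 1.4e-06) and at D7 (-1.98±0.25, edgeR adjusted p = 6.1e-06). For *in vivo* over 2D the difference was -0.02±0.23 (edgeR adjusted p = 0.95), and from D3 to D7 it was 0.34±0.26 (edgeR adjusted p = 0.39).

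*Rian*, a host of small nucleolar RNAs, had 5.38 and 4.92 CPM *in vivo*, 7.25 and 10.4 CPM in 2D, 0.168 and 0.557 CPM at D3, and 1.36 and 1.77 CPM at D7. It was low in organoids as *Meg3* was, and lowest at D3, where its counts were 1 and 4. *In vivo* TECs stood above D3 by 3.70±0.75 (edgeR adjusted p = 0.0011) and 2D stood above both organoid groups, at -4.48±0.74 for D3 over 2D (edgeR adjusted p = 0.00013) and -2.49±0.62 for D7 over 2D (edgeR adjusted p = 0.0037). Without D3 replicate 2 the values against D3 were 4.71 for *in vivo* and -5.53 for D3 over 2D. The call for *in vivo* over D7 (1.72±0.63, edgeR adjusted p = 0.042) was lost without any of the 6 libraries of the *in vivo*, D7 and 2D groups (1.53 to 1.90). *Mirg*, a host of microRNAs, was highest in 2D, at 4.17 and 6.30 CPM, and at most 1.67 CPM elsewhere. It was called for *in vivo* over 2D (-3.47±1.07, edgeR adjusted p = 0.015), but not without *in vivo* replicate 1 (-2.86) or 2D replicate 2 (-3.16), and it was -4.77 without *in vivo* replicate 2. A gene on the opposite strand, *Gm59482*, covers 306 of its last 500 bases.

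*Dlk1*, a Notch-family ligand of fetal progenitors, had 3.30 and 5.48 CPM *in vivo*, 1.45 and 0.370 CPM in 2D, 3.37 and 4.60 CPM at D3, and 9.65 and 2.36 CPM at D7. All libraries of the other groups lay above both 2D libraries. It was higher than in 2D *in vivo* (2.25±0.81, edgeR adjusted p = 0.034) and at D7 (2.72±0.80, edgeR adjusted p = 0.010). The first call was lost without *in vivo* replicate 2 (1.81) or 2D replicate 2 (1.58) and with limma-voom (2.39), the second without 2D replicate 2 (2.07) or D7 replicate 1 (1.35). Without 2D replicate 1 they were 3.51 and 3.98, and the second was 3.37 without D7 replicate 2. *Begain*, which encodes a synaptic scaffold protein, was at most 3.12 CPM and not called. *Rtl1*, a retrotransposon-derived gene of the placenta, had 1 count in all 8 libraries.

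*Grb10* (ENSMUSG00000020176, chr11:11880498-11988683, minus strand) encodes an adaptor protein that dampens insulin and growth factor signalling, and it is maternally expressed outside the nervous system. It had 175 and 195 CPM *in vivo*, 210 and 210 CPM in 2D, 125 and 127 CPM at D3, and 28.9 and 27.8 CPM at D7. The replicates were close, and D7 organoids lay far below every other library. *Grb10* was 6.51-fold higher *in vivo* than at D7 (2.7±0.16, edgeR adjusted p = 1.8e-09). It was 7.39-fold higher in 2D than at D7 (-2.89±0.17 for D7 over 2D, edgeR adjusted p = 4.1e-10), and fell from D3 to D7 (-2.15±0.16, edgeR adjusted p = 1.8e-07). D3 organoids were already below 2D (-0.74±0.15, edgeR adjusted p = 0.00086). They were below *in vivo* TECs by less (0.55±0.15, edgeR adjusted p = 0.010), a call that was lost without *in vivo* replicate 2 (0.45) or D3 replicate 2 (0.49), or with no filter on low counts (0.46). *In vivo* over 2D gave -0.18±0.15 (edgeR adjusted p = 0.35).

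**Figure D3:**
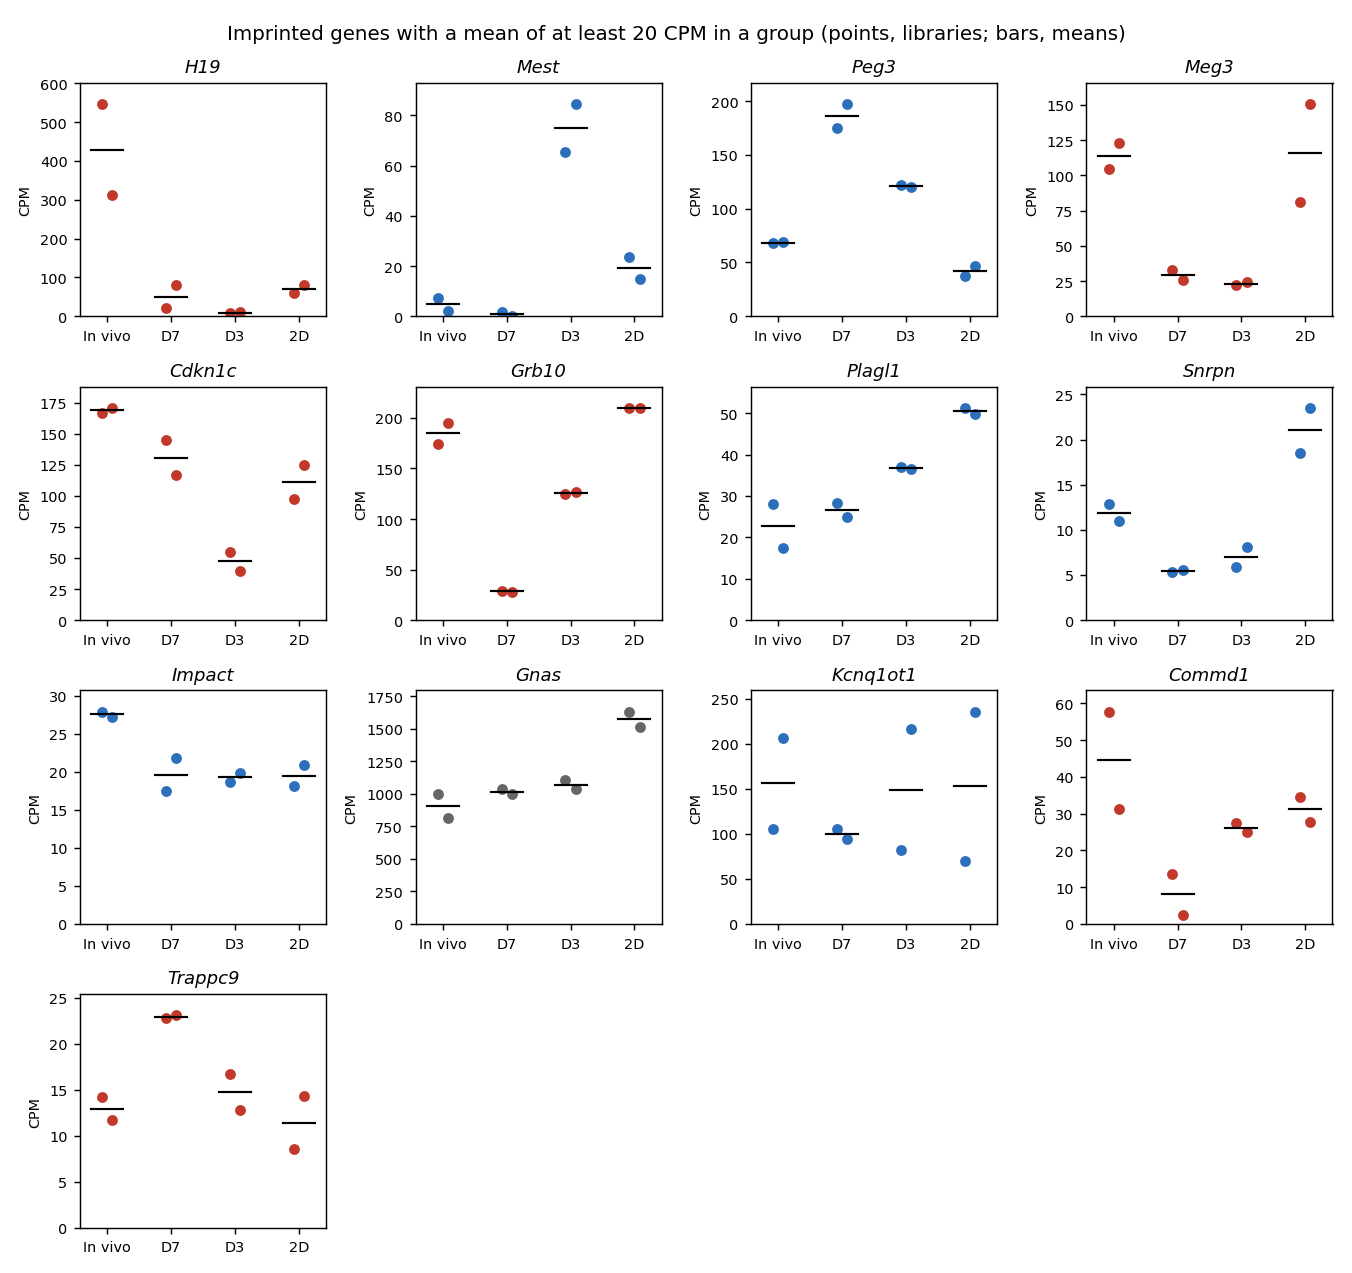
Level in CPM (vertical axes from 0, each on its own scale) of the 13 imprinted genes with a mean of at least 20 CPM in a group, in *in vivo* TECs, D7 and D3 organoids and 2D-cultured TECs (horizontal axes). Points are the 2 libraries of a group and bars their mean, in red for maternally expressed genes, blue for paternally expressed genes and grey for *Gnas*. *Grb10* lies at 27.8 and 28.9 CPM at D7 and at 125 CPM or above elsewhere, and the *Kcnq1ot1* replicates lie far apart in 3 of the 4 groups.

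*Commd1* and *Trappc9*, both maternally biased, moved in opposite ways at D7. *Commd1* (chr11:22846136-22932382, minus strand), which takes part in copper handling, had 57.8 and 31.4 CPM *in vivo*, 34.6 and 27.8 CPM in 2D, 27.5 and 24.9 CPM at D3, and 13.6 and 2.56 CPM at D7. Both D7 libraries lay below all others, but far apart from each other. It was lower at D7 than *in vivo* (2.36±0.43 for *in vivo* over D7, edgeR adjusted p = 0.00043), than in 2D (-1.86±0.44, edgeR adjusted p = 0.0024) and than at D3 (-1.60±0.44, edgeR adjusted p = 0.015). Without D7 replicate 2 these became 1.71, -1.20 and -0.94, the last no longer called. Without D7 replicate 1 they became 4.10, -3.60 and -3.34. The D7 over D3 call was also lost without D3 replicate 1 (-1.53) and with DESeq2's Wald test (-1.72).

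*Trappc9* (chr15:72461467-72934559, minus strand), part of a vesicle-tethering complex, had 14.2 and 11.7 CPM *in vivo*, 8.52 and 14.3 CPM in 2D, 16.7 and 12.8 CPM at D3, and 22.8 and 23.1 CPM at D7. D7 organoids were above all other libraries. The values were -0.83±0.30 for *in vivo* over D7 (edgeR adjusted p = 0.038) and 1.01±0.30 for D7 over 2D (edgeR adjusted p = 0.012). The first was lost without any 1 of the 4 libraries compared (-0.97 to -0.69) and with DESeq2's Wald test (-0.81), the second without 2D replicate 1 (0.68) or D7 replicate 2 (1.0).

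Among the paternally expressed genes, *Mest* (ENSMUSG00000051855, chr6:30723546-30752058, plus strand), which encodes a hydrolase-like protein of fetal mesoderm and adipose tissue, showed the widest swing. It had 7.11 and 2.25 CPM *in vivo*, 23.7 and 14.8 CPM in 2D, 65.5 and 84.6 CPM at D3, and 1.73 and 0.197 CPM at D7, the last from 1 count. No groups overlapped, and D3 organoids stood highest and D7 organoids lowest. *Mest* was 66.4-fold higher at D3 than at D7 (-6.05±0.51 for D7 over D3, edgeR adjusted p = 6.5e-07). It was 16-fold higher at D3 than *in vivo* (-4.04±0.43 for *in vivo* over D3, edgeR adjusted p = 1.3e-06) and 3.89-fold higher at D3 than in 2D (1.96±0.37, edgeR adjusted p = 0.00043). In 2D it was above *in vivo* TECs (-2.08±0.44 for *in vivo* over 2D, edgeR adjusted p = 0.00099) and above D7 organoids (-4.09±0.54 for D7 over 2D, edgeR adjusted p = 9.9e-06).

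The size of these *Mest* differences depended on single libraries, while their direction did not. Leaving out D7 replicate 1 or 2 gave -8.43 or -5.42 for D7 over D3 and -6.47 or -3.46 for D7 over 2D. Without *in vivo* replicate 1 or 2 the value for *in vivo* over D3 was -5.05 or -3.41 and that for *in vivo* over 2D was -3.09 or -1.45. The call for *in vivo* over D7 (2.01±0.62, edgeR adjusted p = 0.019) was lost without *in vivo* replicate 1 (1.0) or D7 replicate 2 (1.38), and also with DESeq2's Wald test (2.21) and with limma-voom (2.17). It was 2.64 without *in vivo* replicate 2 and 4.39 without D7 replicate 1. DESeq2's Wald test also did not call D3 over 2D (1.95). The last 500 bases of *Mest* lie within *Copg2* on the opposite strand, and the sources used here do not say whether the counting was stranded.

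*Peg3* (ENSMUSG00000002265, chr7:6706882-6733468, minus strand), a zinc-finger protein gene, was called in all 6 comparisons. It had 37.2 and 46.7 CPM in 2D, 67.8 and 69.2 CPM *in vivo*, 122 and 120 CPM at D3, and 175 and 197 CPM at D7. The groups did not overlap and stood in the order 2D, *in vivo*, D3, D7. The value for D7 over 2D was 2.15±0.17, or 4.43-fold (edgeR adjusted p = 2.8e-08), and that for D3 over 2D was 1.53±0.17 (edgeR adjusted p = 1.8e-06). *In vivo* TECs were below D7 (-1.44±0.17, edgeR adjusted p = 3.9e-06) and D3 (-0.82±0.17, edgeR adjusted p = 0.0011). They were above 2D (0.71±0.17, edgeR adjusted p = 0.0032), a call lost without 2D replicate 1 (0.55). The rise from D3 to D7 (0.62±0.16, edgeR adjusted p = 0.012) was lost without either D3 replicate (0.63 and 0.54) or without D7 replicate 2 (0.53).

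The neighbours of *Peg3* were expressed at much lower counts. *Usp29*, a ubiquitin peptidase gene that shares the bidirectional start region of *Peg3*, had 5.32 and 3.94 CPM at D7 and 0.703 to 2.08 CPM in the other 6 libraries. D7 libraries thus lay above all others, but no comparison passed the test, the closest being D7 over 2D (1.84±0.84, edgeR adjusted p = 0.084). *Zim1*, a maternally expressed zinc-finger gene next to *Peg3*, was at most 2.6 CPM, and its largest fitted difference was also D7 over 2D (1.84±1.08, edgeR adjusted p = 0.18).

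*Plagl1* (chr10:12936248-13007438, plus strand), a zinc-finger transcription factor that restrains proliferation, had 27.9 and 17.4 CPM *in vivo*, 51.3 and 49.8 CPM in 2D, 36.9 and 36.5 CPM at D3, and 28.2 and 25 CPM at D7. It was highest in 2D, and *in vivo* and D7 libraries overlapped. 2D was above *in vivo* TECs (-1.16±0.23 for *in vivo* over 2D, edgeR adjusted p = 0.00063) and D7 (-0.92±0.23 for D7 over 2D, edgeR adjusted p = 0.0035). The call for *in vivo* over D3 (-0.70±0.23, edgeR adjusted p = 0.032) was lost without *in vivo* replicate 2 (-0.41) and without either D3 replicate (-0.69 and -0.78).

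In the *Snrpn* cluster on chromosome 7, the tested genes were *Snrpn*, *Ndn* and *Peg12*, all paternally expressed. *Snrpn* (chr7:59630427-59820763, minus strand), a component of the splicing machinery best known from brain, had 12.8 and 11 CPM *in vivo*, 18.5 and 23.5 CPM in 2D, 5.90 and 8.08 CPM at D3, and 5.32 and 5.52 CPM at D7. 2D libraries were highest and the organoid libraries lowest. *Snrpn* was lower than in 2D at D7 (-1.95±0.33, edgeR adjusted p = 0.00015) and D3 (-1.58±0.33, edgeR adjusted p = 0.00094). The call for *in vivo* over D7 (1.13±0.34, edgeR adjusted p = 0.015) was lost without *in vivo* replicate 1 or either D7 replicate (1.02 to 1.16). That for *in vivo* over 2D (-0.82±0.31, edgeR adjusted p = 0.044) was lost in 6 of the 8 fits that left out a library (-0.98 to -0.65) and with DESeq2's Wald test (-0.84). Transcript ends shared with *Gm38393* and *Snord107* hold 52.5% of the 50-base words of its last 500 bases, so its reads may have been split between these genes.

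*Ndn*, a growth-restraining MAGE-family gene, had 18.0 and 20.1 CPM *in vivo*, 13.4 and 8.15 CPM in 2D, 19.4 and 14.3 CPM at D3, and 10.4 and 8.47 CPM at D7. It was higher *in vivo* than at D7 (1.01±0.31, edgeR adjusted p = 0.019), which was lost without *in vivo* replicate 2 (0.92) or D7 replicate 2 (0.88). The *in vivo* over 2D call (0.82±0.31, edgeR adjusted p = 0.044) was lost in 7 of the 8 fits with a library left out (0.50 to 0.90). *Peg12*, a relative of the FRAT regulators of Wnt signalling, had 13 and 15.6 CPM *in vivo*, 10.5 and 5.0 CPM in 2D, 10.4 and 8.36 CPM at D3, and 3.96 and 3.35 CPM at D7, where it was lowest. The difference between *in vivo* and D7 was 1.95±0.42 (edgeR adjusted p = 0.0015). The fall from D3 to D7 (-1.34±0.42, edgeR adjusted p = 0.032) was lost without any 1 of the 4 libraries compared (-1.57 to -1.18). *Magel2*, another MAGE-family gene, had 5 counts in all and was not tested.

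*Peg10*, a retrotransposon-derived gene needed in the placenta, and *Sgce*, which encodes a sarcoglycan, are divergent and paternally expressed. *Peg10* had 6.59 and 4.64 CPM *in vivo*, 1.45 and 1.11 CPM in 2D, 7.24 and 7.94 CPM at D3, and 1.73 and 2.36 CPM at D7. *In vivo* and D3 libraries stood above those of 2D and D7. D3 over 2D gave 2.55±0.60 (edgeR adjusted p = 0.0029) and *in vivo* over 2D gave 2.11±0.61 (edgeR adjusted p = 0.010), the latter lost without 2D replicate 2 (1.92). The fall from D3 to D7 (-1.90±0.57, edgeR adjusted p = 0.025) was lost without any 1 of the 4 libraries compared (-2.12 to -1.68).

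*Sgce* also fell from D3 (15.3 and 19.8 CPM) to D7 (7.05 and 1.58 CPM), by -1.94±0.57 on the log2 scale (edgeR adjusted p = 0.022). The value was -3.46 without D7 replicate 1, and the call was lost without either D3 replicate or D7 replicate 2 (-2.12 to -1.32). It had 2.43 and 10.5 CPM *in vivo* and 9.61 and 13.3 CPM in 2D, with no other call. *Asb4*, the maternally expressed gene of this cluster, had 14 counts, all in 2D replicate 2, and was not tested.

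*Airn* is the paternally expressed RNA that silences *Igf2r* in *cis*. It had 2.26 and 6.33 CPM *in vivo*, 8.52 and 10.6 CPM in 2D, 14.7 and 14.2 CPM at D3, and 16.1 and 13.4 CPM at D7. Both *in vivo* libraries lay below all cultures. The values were -1.75±0.40 for *in vivo* over D7 (edgeR adjusted p = 0.0028) and -1.71±0.40 for *in vivo* over D3 (edgeR adjusted p = 0.0038), and they grew to -2.71 and -2.68 without *in vivo* replicate 2. The *in vivo* over 2D call (-1.12±0.41, edgeR adjusted p = 0.038) was lost in 5 of the 8 fits with a library left out (-1.27 to -0.59), and was -2.08 without *in vivo* replicate 2. *Igf2r* itself, the maternally expressed receptor that clears IGF2, had 39.4 and 45.7 CPM *in vivo*, 39.6 and 42.8 CPM at D7, 56.9 and 58.4 CPM at D3, and 69.1 and 98.4 CPM in 2D. It was highest in 2D, with -0.97±0.20 for *in vivo* over 2D (edgeR adjusted p = 0.00078) and -1.03±0.20 for D7 over 2D (edgeR adjusted p = 0.00049).

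*Impact*, which modulates protein synthesis under amino acid shortage, and *Nnat*, a small membrane protein best known from brain, were called in no comparison. *Impact* had 27.9 and 27.3 CPM *in vivo* and between 17.4 and 21.9 CPM in the 6 culture libraries. *In vivo* libraries were thus above all cultures, with fitted differences of 0.50 to 0.51±0.24 (edgeR adjusted p = 0.10 to 0.12). The difference from 2D was 0.68 and passed the threshold without TMM scaling. *Nnat* ran from 8.16 CPM at D7 to 13.7 CPM *in vivo*. *Nap1l5*, a nucleosome assembly protein gene, had 17 and 4 counts *in vivo* and at most 3 elsewhere, and was not tested.

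*Gnas* (chr2:174126022-174188537, plus strand) encodes the stimulatory G protein alpha subunit and several other imprinted transcripts that share its 3′ end, so the counts cannot separate them. It had 998 and 816 CPM *in vivo*, 1632 and 1513 CPM in 2D, 1106 and 1036 CPM at D3, and 1035 and 1000 CPM at D7. The 2D libraries stood above all others. The log2 fold changes were -0.79±0.14 for *in vivo* over 2D (edgeR adjusted p = 0.00024), -0.63±0.14 for D7 over 2D (edgeR adjusted p = 0.0017) and -0.55±0.14 for D3 over 2D (edgeR adjusted p = 0.0052). The last was -0.29 and not called without TMM scaling. *In vivo*, D3 and D7 did not differ past the threshold (edgeR adjusted p = 0.23 to 0.77).

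Another list held 34 further imprinted genes, several of which are imprinted mainly in the placenta, of which 24 were tested. Of these, 2 were higher and 10 lower *in vivo* than at D7, beside 16.8% and 18.0% of all genes. Then 1 was higher and 10 lower *in vivo* than in 2D (21.7% and 19.9% of all genes), and 2 were higher and 5 lower *in vivo* than at D3 (14.0% and 14.1%). D7 organoids were higher than 2D in 4 and lower in 6 (24.4% and 21.1%), and D3 organoids higher in 1 and lower in 9 (19.3% and 19.1%). From D3 to D7, 4 rose and 1 fell (10.9% and 9.90%). Across the 24, *in vivo* over 2D had a median log2 fold change of -0.46, against 0.06 for all genes. *Cd81*, a tetraspanin gene, had 73.9 and 68.8 CPM *in vivo*, 191 and 182 CPM at D7, 185 and 223 CPM at D3, and 431 and 463 CPM in 2D, so *in vivo* libraries were lowest and 2D highest (-2.65±0.16 for *in vivo* over 2D, edgeR adjusted p = 6.7e-10). *Osbpl5*, a lipid-transfer protein gene, was ordered the same way, with -2.01±0.33 for *in vivo* over 2D (edgeR adjusted p = 9.0e-05).

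The paraoxonase genes *Pon2* and *Pon3*, close to *Peg10*, were also highest in 2D. *In vivo* over 2D gave -1.11±0.26 for *Pon2* (edgeR adjusted p = 0.0023) and -3.00±0.53 for *Pon3* (edgeR adjusted p = 0.00021). The first was lost without 2D replicate 1 (-0.79), and the second was -4.86 without *in vivo* replicate 1 and -2.15 without *in vivo* replicate 2. *Slc38a4*, an amino acid transporter gene, was lowest at D7, with 24.1 and 17.7 CPM against 77.5 and 85.1 CPM at D3 (-1.94±0.20 for D7 over D3, edgeR adjusted p = 7.1e-06). *Dcn*, which encodes the matrix proteoglycan decorin, was highest at D7, with 53.4 and 50.8 CPM, then 18.2 and 23.1 CPM *in vivo*, and at most 7.08 CPM at D3 and in 2D. D7 over D3 gave 3.34±0.37 (edgeR adjusted p = 1.2e-05), and the value was 3.96 without D3 replicate 1. *Dcn* is itself 1 of the 10 mesenchymal markers. It makes up much of their sum at D7 (82.7 and 75.1 CPM), so that sum is not separate from it. *Igf2*, the paternally expressed growth factor, had 1 count in all, but its whole last 500 bases are shared on the same strand with *Gm49394*, so its level cannot be read from these counts.

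A list of 25 genes, of which 23 were tested, held genes that set, copy, protect or remove DNA methylation. It also held other chromatin regulators, such as *Ezh2*, *Suz12* and *Ehmt2*, so its counts do not describe the keeping of methylation alone. *In vivo* TECs were higher than 2D in 15 and lower in none, D3 organoids higher than 2D in 12 and lower in none, and D7 organoids higher in 12 and lower in 3. Of all genes, 41.6%, 38.3% and 45.5% were called in these comparisons, with 21.7%, 19.3% and 24.4% higher. The median log2 fold changes were 0.58, 0.61 and 0.64, against 0.06, 0.02 and 0.10 for all genes. The other comparisons were mixed, at 5 higher and 3 lower for *in vivo* over D7, 4 and 3 for *in vivo* over D3, and 4 and 5 for D7 over D3, beside 34.8%, 28.2% and 20.8% of all genes called. *Dnmt1* had 97.0 and 58.6 CPM *in vivo*, 76.2 and 84.9 CPM at D7, 158 and 130 CPM at D3, and 53.3 and 50.2 CPM in 2D. Its partner *Uhrf1* had 83.5 and 59.8, 47.9 and 37.8, 137 and 116, and 22.7 and 12 CPM in the same order. Both were highest at D3 and lowest in 2D, at 1.47±0.21 for *Dnmt1* (edgeR adjusted p = 3.2e-05) and 2.86±0.26 for *Uhrf1* (edgeR adjusted p = 1.7e-07) for D3 over 2D. *Hells*, a chromatin remodeller that aids DNA methylation, was ordered alike, at 1.66±0.17 (edgeR adjusted p = 5.8e-07).

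The demethylating enzymes *Tet1* and *Tet2* were lowest in 2D. *Tet1* had 78.1 and 86.0 CPM *in vivo*, 76.4 and 87.5 CPM at D7, 45.1 and 50.2 CPM at D3, and 13.4 and 9.82 CPM in 2D. The values for *in vivo* over 2D were 2.82±0.21 for *Tet1* (edgeR adjusted p = 1.2e-08) and 1.99±0.20 for *Tet2* (edgeR adjusted p = 3.8e-07). *Dnmt3b*, a *de novo* methyltransferase gene, and *Kdm1b*, a histone demethylase gene that acts when maternal imprints are set, were instead highest *in vivo*. *Dnmt3b* had 38.0 and 15.7 CPM *in vivo* and at most 5.56 CPM in the cultures (3.08±0.44 for *in vivo* over D7, edgeR adjusted p = 3.6e-05, and 2.32 without *in vivo* replicate 1). *Kdm1b* had 66.8 and 58.5 CPM *in vivo* and 10.2 to 17.9 CPM in the cultures (2.58±0.24 for *in vivo* over D7, edgeR adjusted p = 2.6e-07). *Trim28* ran from 87.7 CPM in 2D to 203 CPM at D7. *Zfp57* had 3.30 and 1.41 CPM *in vivo*, at most 1.01 CPM in organoids and 1 count in the 2D libraries together.

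**Figure D4:**
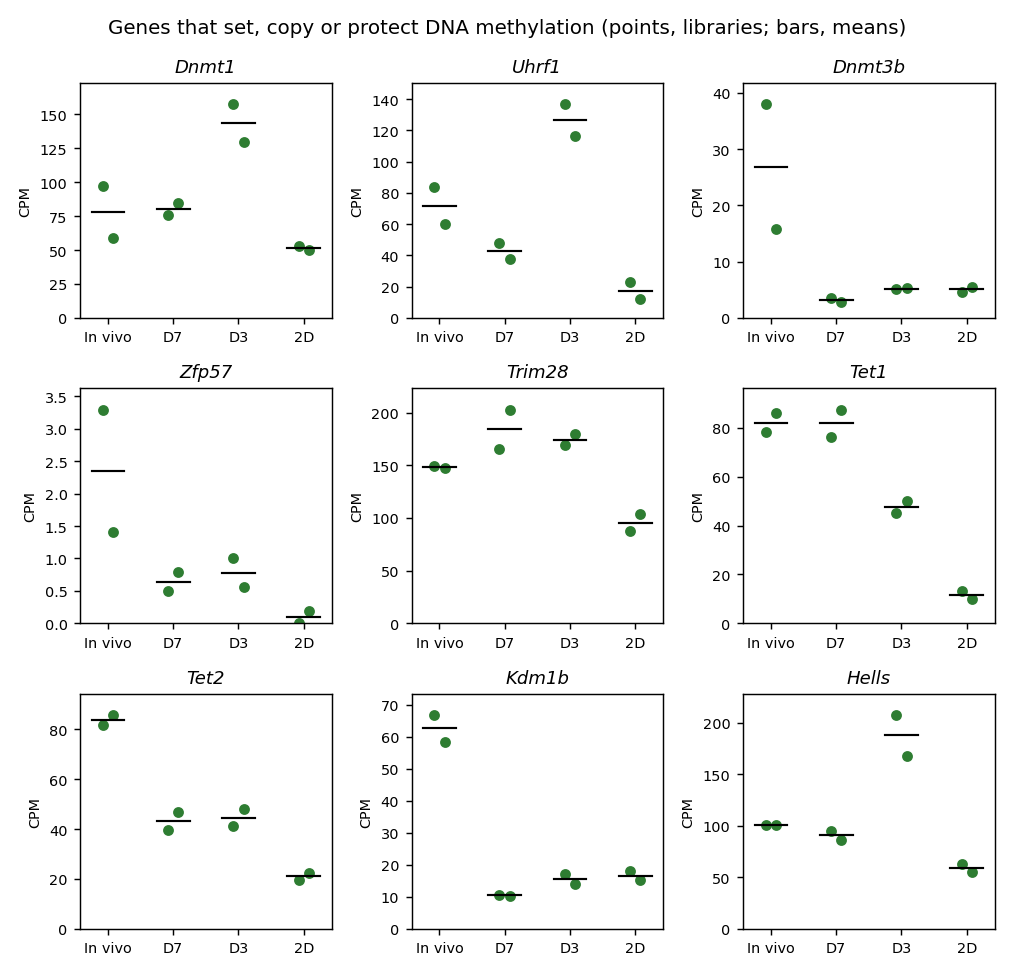
Level in CPM (vertical axes from 0, each on its own scale) of 9 genes that set, copy, remove or protect DNA methylation, in *in vivo* TECs, D7 and D3 organoids and 2D-cultured TECs (horizontal axes), with points for libraries and bars for means. *Dnmt1*, *Uhrf1* and *Hells* are highest at D3 and lowest in 2D, and *Dnmt3b* and *Kdm1b* are highest *in vivo*.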

How the data were processed

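Bulk RNA of 8 TEC libraries, 2 in each of 4 groups, was sequenced by the authors with the QuantSeq 3′ method and aligned to GRCm39 with STAR. The deposited values are counts of reads per Ensembl gene, with no normalization. The annotation release, whether counting used the strand, and how multi-mapping reads were handled are not given in the sources used here. A GENCODE annotation of GRCm39 named 56236 of the 56923 genes and left 687 unnamed.

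The 14504 genes that reached 1 CPM in 3 or more libraries were tested in edgeR 4.0.16 (R 4.3.3), in 1 quasi-likelihood model of all 8 libraries with TMM factors (0.880 to 1.09) and Benjamini-Hochberg adjustment, at 0.05. The procedure was also tested on simulated data. Alternatives were DESeq2 1.42.0 (size factors, Wald test), limma-voom (limma 3.58.1), no normalization, leaving out the 18S ribosomal RNA gene (16.6% to 24.3% of counts), no filter, a filter at a mean of 10 CPM, fits of only 2 groups, a replicate block, a minimum log2 fold change of 1 and leaving out each library. Bounds use a floor of 3 counts per library and cover counting error only. p-values measure the spread between libraries.

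All 34 imprinted genes are accounted for, with full values for those at a mean of at least 20 CPM in a group. In each other list, up to 6 genes of at least 10 CPM were named by size of change, beside *Igf2*, *Igf2r*, *Dnmt1*, *Uhrf1*, *Zfp57* and *Trim28*. These genes and lists were chosen with earlier results of these data known.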

Additional observations from a re-analysis of the deposited data

How the results depend on the processing

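With 2 libraries per group, single libraries decided many calls. Of 69 calls on imprinted genes, 37 held under every alternative in which the gene was fitted. With at least 1 library left out 25 were lost, under at least 1 other alternative 21 were lost, and 0 changed direction. Calls on genes below the filter at a mean of 10 CPM could not be tried under that alternative. Of 33 values followed that were not called, 6 were called under some alternative. Leaving out each library in turn gave 7 to 12 called genes for *in vivo* over D7 (12 with all libraries), 7 to 13 for *in vivo* over 2D (14), 7 to 11 for *in vivo* over D3 (10), 12 to 17 for D7 over 2D (13), 11 to 13 for D3 over 2D (11) and 4 to 9 for D7 over D3 (9). The lowest for *in vivo* over D7 came without D7 replicate 2, that for *in vivo* over 2D without 2D replicate 2, with 9 without *in vivo* replicate 1, and those for D7 over D3 without D3 replicate 1 or D7 replicate 2, with 5 without D3 replicate 2. For *in vivo* over 2D, 9 genes were called with a filter at a mean of 10 CPM and 9 when a log2 fold change of at least 1 in size was also required. The cause of these changes was not tested, beyond the smaller number of genes or libraries in each fit. The shares of all genes called in these fits are not given here, so the counts describe only how steady the calls were. With a replicate block the counts were 12, 14, 11, 14, 13 and 10 in the order above, and no call on a gene named in the text was lost, but deviations of same-numbered replicates correlated by only 0.0185 to 0.121 over the 6 pairs of groups, so the numbers were not taken to pair the libraries.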
